A study of Mus musculus with 31 samples.

Results

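Astrocytes are the glial cells that buffer water, ions and transmitters around neurons, and a small set of genes is commonly used to recognise their RNA. The 10 genes described here are Gfap, Aqp4, S100b, Gja1, Gjb6, Slc4a4, Aldh1l1, Ntsr2, Fgfr3 and Sox9. They were chosen by symbol, and every probe set that the platform annotation gives to those symbols was taken. This gave 10 of the 18193 genes and 28 of the 45101 probe sets on the array. The brightest probe set of a gene, by its mean intensity, stands for the gene unless another is named.

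The study hybridised biotin-labelled RNA to 31 Affymetrix mouse arrays, 1 array per sample, which the labels place in 10 groups of sorted mouse CD4 T cells. All cells came from mice with an EGFP reporter in the Foxp3 gene, either a bicistronic Foxp3/EGFP allele or the mutant Foxp3deltaEGFP allele. The groups labelled induced Treg (5 arrays), failed induced Treg (3 arrays) and induced Foxp3-delta (3 arrays) were treated with anti-CD3, anti-CD28 and TGF-beta for 3 days, the last from Foxp3deltaEGFP mice. Failed induced Treg are the cells of the induced Treg cultures that stayed without EGFP. Activated T (4 arrays) received anti-CD3 and anti-CD28 without TGF-beta, and activated natural Treg (3 arrays) received the antibodies with TGF-beta. Natural Treg (4 arrays), conventional T (3 arrays) and natural Foxp3-delta (2 arrays, from heterozygous Foxp3deltaEGFP females) were not activated. IL-2 induced Treg and IL-2 induced Foxp3-delta (2 arrays each) were kept for 1 further week in IL-2 at 100 units per ml after the 3 days. Since nothing in the labels tells whether replicate arrays of a group had separate cultures or animals behind them, the p-values reflect sample-to-sample spread that could be purely technical.

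The labelled cell type was checked against its markers first, and most of those markers were near background. Of 12 listed T cell genes 11 were on the array, and 0 of them lay above every bacterial control on all 31 arrays, the controls being probe sets for bacterial RNA that was not added. Cd3e (24.7 to 68.2), part of the CD3 signalling module, and Cd4 (12.3 to 26.7) were above the controls' 95th percentile on every array, and Cd3e alone of the 11 passed the filter on low values described below. The median T cell gene stood at the 24.1st percentile of its array on average (19.7 to 27.3 over arrays), and the summed T cell intensity ran from 122 to 244. Foxp3 itself, the gene that defines regulatory T cells, was at 7.62 to 17.0, in the range of the controls, whose 95th percentile was 9.17 to 18.7. Neuron markers (6 genes, median percentile 98.9), oligodendrocyte markers (5 genes, 99.95) and microglia markers (6 genes, 77.8) were all above the controls on every array. Whether the deposited values come from the labelled samples is not known here, so the groups are named below as the arrays' labels give them, and each difference is one between arrays so labelled. No group had arrays on which the T cell genes reached the level of these nervous system genes: the T cell median stayed between the 19.7th and the 27.3rd percentile in all 10 groups.

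The 10 genes do different jobs in an astrocyte. Gfap is the intermediate filament of the cell and S100b a small calcium-binding protein. Aqp4 is the water channel of the endfeet that wrap vessels, and Slc4a4 moves sodium and bicarbonate across the membrane. Gja1 (connexin 43) and Gjb6 (connexin 30) form the gap junctions that couple astrocytes to each other. Aldh1l1 is an enzyme of folate metabolism. Ntsr2 is a neurotensin receptor, Fgfr3 a receptor for fibroblast growth factors, and Sox9 a transcription factor of the SoxE group that acts in glial development. In bulk RNA, fewer cells of a type and less RNA per cell cannot be told apart.

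The stretches of 250 bases before the start that RefSeq's promoter entry uses are shown for 3 of these genes, because Gfap and S100b formed the most correlated pair and Ntsr2 was the single gene that passed a test between label groups. The sequences are from RefSeq's annotation of GRCm38.p6 and run 5′ to 3′ along the gene. Both strands were searched for 5 motifs, and a match is in capitals. The motif of STAT factors was TTCNNNGAA, and that of AP-1 was TGANTCA. For SOX factors ATTGTT was used. A half-site of nuclear factor I was written as TTGGCA. The TATA box was written as TATAAA. No match in these stretches overlapped another. RefSeq promoters were given for 8 of the 10 genes, 10 promoters in all.
Gfap: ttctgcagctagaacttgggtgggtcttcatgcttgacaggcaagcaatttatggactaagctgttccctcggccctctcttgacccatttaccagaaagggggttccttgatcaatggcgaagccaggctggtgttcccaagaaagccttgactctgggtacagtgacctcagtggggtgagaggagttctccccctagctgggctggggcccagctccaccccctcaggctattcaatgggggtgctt
S100b: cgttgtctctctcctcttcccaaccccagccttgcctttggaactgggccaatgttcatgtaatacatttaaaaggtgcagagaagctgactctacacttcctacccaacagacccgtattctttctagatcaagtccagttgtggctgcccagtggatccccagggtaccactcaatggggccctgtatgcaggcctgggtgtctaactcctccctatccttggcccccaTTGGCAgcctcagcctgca
Ntsr2: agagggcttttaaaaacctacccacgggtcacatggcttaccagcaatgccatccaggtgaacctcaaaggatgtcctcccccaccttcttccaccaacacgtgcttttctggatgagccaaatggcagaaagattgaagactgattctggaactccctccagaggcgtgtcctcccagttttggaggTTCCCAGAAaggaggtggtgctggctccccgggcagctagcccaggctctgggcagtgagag

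The Gfap stretch is chr11:102897201-102897450 on the minus strand, the S100b stretch chr10:76253586-76253835 and the Ntsr2 stretch chr12:16653220-16653469, both on the plus strand. The last 27 bases of the Ntsr2 stretch lie inside the annotated gene, which begins upstream of the start used here. In the Ntsr2 stretch the letters of the STAT motif lie 62 to 54 bases before the start, and 7.02% of 32851 mouse promoters hold them. The S100b stretch holds the nuclear factor I half-site 19 to 14 bases before the start, as do 12.3% of all promoters at some place in the same window. None of the 5 motifs is in the Gfap stretch. Among the promoters not shown, that of Gja1 holds the AP-1 letters (6.75% of all promoters do), and 0 of the 10 promoters hold the SOX or TATA letters (9.42% and 12.4% of all promoters). A match is a description of the letters and no evidence of binding.

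All 10 genes lay above every bacterial control on all 31 arrays. Gfap had deposited intensities of 2971 to 9995 with a median of 4561, Aqp4 of 3177 to 9518 with a median of 5223, and S100b of 2718 to 13747 with a median of 5639. Gja1 ran from 2645 to 7312 (median 3755), Ntsr2 from 2968 to 9073 (median 4157) and Slc4a4 from 1444 to 3819 (median 2310). These 6 genes had mean percentiles between 97.3 and 99.3 within the array, averaged over the 31 arrays.

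The remaining 4 genes were lower and still well above the controls. Gjb6 had intensities of 543 to 2223 with a median of 1161, Fgfr3 of 468 to 2027 with a median of 1172, and Aldh1l1 of 476 to 1346 with a median of 765. Their mean percentiles were 94.2, 93.9 and 91.1. Sox9 was the dimmest, at 72.4 to 347 with a median of 203 and a mean percentile of 73.7. Probe sets differ in how brightly they report a given amount of RNA, so these percentiles place each probe set on the array and do not order the genes by abundance.

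**Figure D1:**
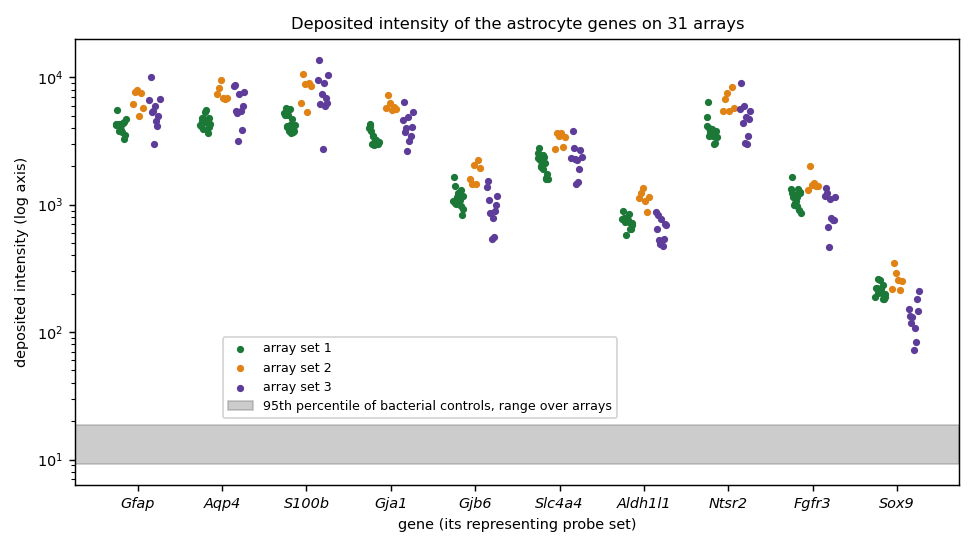
Deposited intensity (log axis) of the probe set that represents each of the 10 genes, 1 point per array, coloured by the 3 array sets that the hybridisation controls and intensity levels define (15, 6 and 10 arrays). Every point lies above the grey band, the range over arrays of the controls' 95th percentile (9.17 to 18.7), and Gfap lies between 2971 and 9995.

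The other probe sets of the genes were mostly above background too. Of the 28 probe sets, 25 passed the filter on low values (above the table's median of 39.8 after normalisation on at least 2 arrays). The 3 that did not were 1 each of Aldh1l1 (11.01 to 20.5), Sox9 (9.88 to 20.6) and Slc4a4 (6.59 to 15.0), in genes whose other probe sets passed. Gja1 had 6 probe sets with mean intensities from 40.5 to 4183, and a probe set at the low end of such a range carries little signal.

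Relatives of the genes were not uniformly bright. Aqp4 was the only 1 of 12 aquaporins at a mean percentile of 90 or more, and 4 of the 12 passed the low-value filter. Aqp1, known from choroid plexus epithelium, had 11.8 to 35.3. Of 12 connexins on the array 7 passed and 3 were at the 90th percentile or more, namely Gja1, Gjb6 and Gjb1, the last a connexin of myelinating cells (538 to 1703). Among the SoxE genes Sox10, a factor of the oligodendrocyte line, had 576 to 2630, and Sox8 had 231 to 673. Ntsr1, the other neurotensin receptor of the G protein coupled type, had 14.6 to 64.6, and Fgfr4 had 14.4 to 44.2 and did not pass the filter. Of 48 further astrocyte genes on the array, all 48 passed and 30 were at the 90th percentile or more, with a median percentile of 94.95 on average.

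After quantile normalisation, which gives all arrays the same distribution of values, the 10 genes varied less than as deposited. The highest array exceeded the lowest by 1.37-fold for Gja1, 1.52-fold for Gfap, 1.59-fold for Aqp4 and Slc4a4, 1.62-fold for Ntsr2 and 1.64-fold for Aldh1l1. The factor was 1.86 for Gjb6, 1.87 for Fgfr3, 1.89 for S100b and 2.04 for Sox9. As deposited, the same factors ran from 2.65 for Slc4a4 to 5.06 for S100b. The standard deviation over 31 arrays on the log2(intensity + 16) scale, used for every difference below, had a median of 0.18 over the 10 genes and 0.16 over all 12169 genes tested. It was 0.14 over the 2871 brightest genes (mean percentile of 90 or more), which include 9 of the 10.

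The label groups accounted for a median of 31.3% of the variance of the 10 genes and 41.1% over all genes tested. Ntsr2 (56.8%), Slc4a4 (54.4%) and Gja1 (48.9%) had the largest shares among the 10, and Aqp4 (11.1%) and Gjb6 (13.3%) the smallest. Array sets, which are 3 sets of arrays found by clustering on hybridisation controls and intensity levels, accounted for a median of 9.79% against 24.2% over all genes. S100b was apart from the other genes here, with 39.9% of its variance between array sets and a correlation of 0.68 with the ratio of the cre to the bioB control over the 31 arrays. The part of the array sets in its group differences was not tested beyond the fits given below.

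Across the 10 label groups together, 0 of the 10 genes passed the moderated F test of limma at an adjusted p under 0.05, and 2 had an unadjusted p under it. In the same test 13.6% of all 12169 genes did, 1658 genes. The smallest adjusted p-values, by limma with Benjamini-Hochberg adjustment, were 0.0600 for Ntsr2 and 0.0842 for Slc4a4, and Aqp4 had 0.975. The group means of a gene spanned from 0.19 (Aqp4) to 0.52 (S100b) on the log2 scale, beside standard deviations within groups of 0.10 (Gja1) to 0.25 (S100b).

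The order of the group means differed from gene to gene. Gfap was highest on arrays labelled failed induced Treg (12.45 ± 0.11, SD, n = 3) and lowest on natural Foxp3-delta (12.23 ± 0.21, n = 2). Aqp4 ran from 12.54 ± 0.13 (induced Foxp3-delta, n = 3) to 12.35 ± 0.071 (failed induced Treg, n = 3), so the group that was highest for Gfap was lowest for Aqp4. S100b ran from 12.81 ± 0.13 (natural Foxp3-delta, n = 2) to 12.29 ± 0.13 (IL-2 induced Foxp3-delta, n = 2). Gja1 ran from 12.13 ± 0.072 (activated T, n = 4) to 11.88 ± 0.047 (IL-2 induced Foxp3-delta, n = 2). For 8 of the 10 genes the arrays of every 2 groups next to each other in this order overlapped, and for Slc4a4 and Ntsr2 they did in 8 of 9 such pairs. Neighbours in an order of means are the groups most likely to overlap, and the share over all genes was not computed. The count is therefore a description only.

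The other genes gave the same picture with other groups at the ends. Gjb6 was highest on natural Foxp3-delta (10.37 ± 0.094, n = 2), and both Gjb6 (10.13 ± 0.38) and Fgfr3 (9.94 ± 0.20) were lowest on activated T (n = 4), as was Sox9 (7.46 ± 0.26). Fgfr3 (10.38 ± 0.31) and Sox9 (7.89 ± 0.29) were highest on IL-2 induced Treg (n = 2). Aldh1l1 ran from 9.81 ± 0.016 on induced Foxp3-delta (n = 3) to 9.51 ± 0.14 on failed induced Treg (n = 3). Slc4a4 ran from 11.39 ± 0.026 (failed induced Treg, n = 3) to 10.92 ± 0.073 (IL-2 induced Foxp3-delta, n = 2). Ntsr2 ran from 12.46 ± 0.26 (activated T, n = 4) to 12.06 ± 0.014 (IL-2 induced Treg, n = 2).

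**Figure D2:**
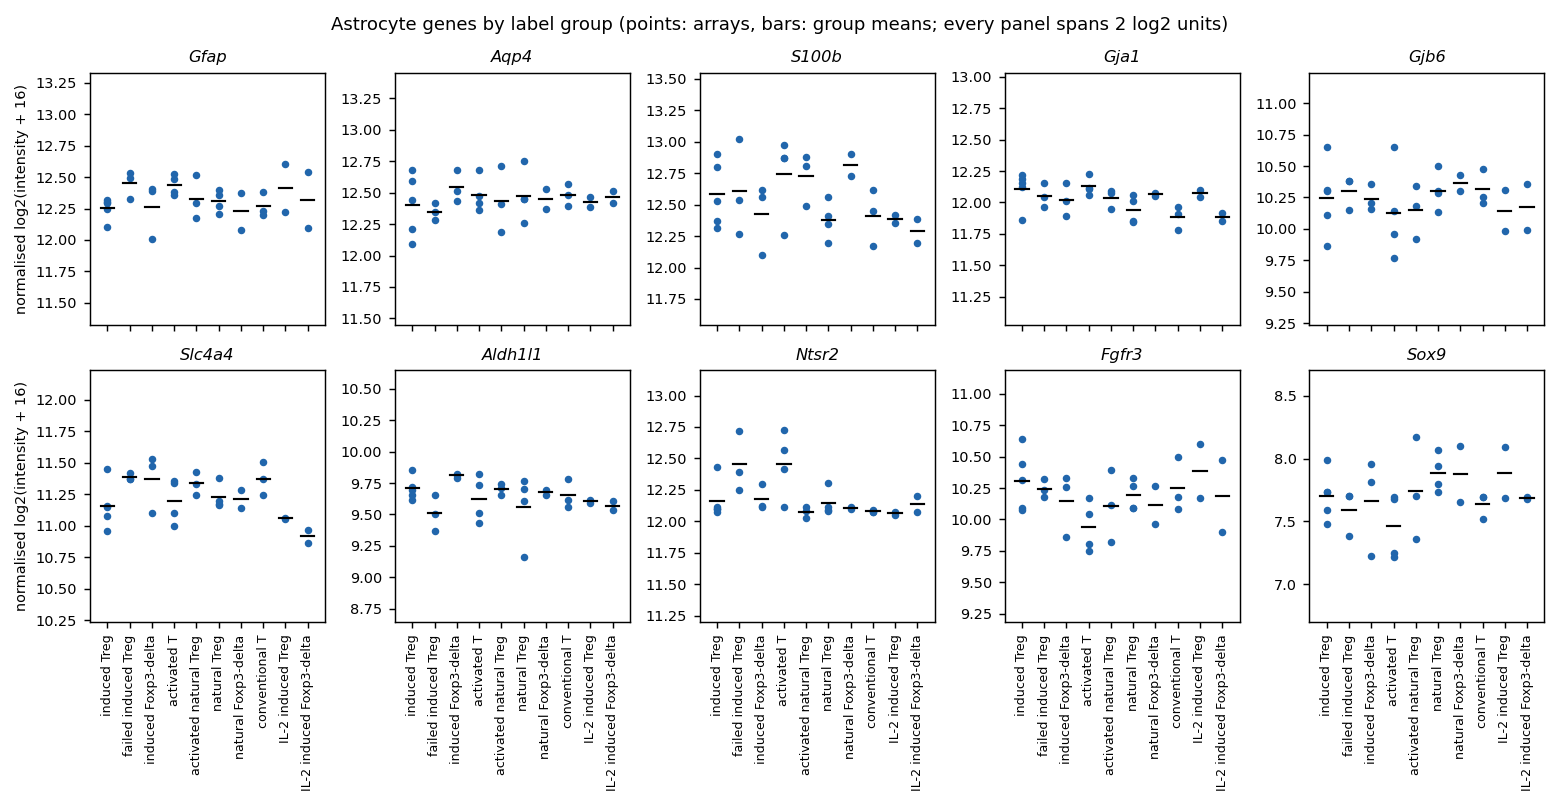
Quantile-normalised log2(intensity + 16) of each gene by label group, with 1 point per array, bars at group means and panels that all span 2 log2 units. Group means of Aqp4 lie within 0.19 of each other, and Ntsr2 shows most arrays near 12.1 with single arrays above, up to 12.72 in activated T.

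In 9 comparisons between label groups, 90 differences in all, 1 passed an adjusted p under 0.05. The differences had a median size of 0.098 on the log2 scale and all lay under 0.5, the largest being 0.45, and all 90 of the 95% intervals lay between -0.86 and 0.72. An unadjusted p under 0.05 occurred in 8 of the 90, or 8.89%, beside 14.1% over all genes in the same comparisons. The comparisons share arrays and are not independent of each other.

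The gene that passed was Ntsr2, in activated T against conventional T, a comparison of stimulated with unstimulated cells in the labels. Its normalised log2 values were 12.72, 12.57, 12.42 and 12.11 on activated T 1 to 4 and 12.07, 12.07 and 12.09 on conventional T 1 to 3. The activated T arrays were all higher and did not overlap with conventional T, the lowest of them being 12.11 beside 12.09. The deposited intensities were 8363, 5926, 3064 and 4915 against 3845, 3431 and 3638, and there the groups overlapped, since activated T 3 was the dimmest of the 7. The difference was 0.38 with a standard error of 0.11, a fold of 1.30, at an adjusted p of 0.0430 by limma. Of all genes 3.38% were called higher in this comparison and 6.75% in either direction (411 higher and 411 lower), so 1 of 10 is near the background.

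Several alternatives ended that call. The adjusted p by limma was 0.114 with the values as deposited, 0.0529 without the low-value filter, 0.137 when only the arrays of both groups were fitted, and 0.194 with the array sets as a block. It was between 0.0703 and 0.122 after leaving out activated T 1, 2 or 3 or any one of the conventional T arrays, and 0.0512 without either IL-2 induced Treg array. Activated T lay in array sets 2 and 3 and conventional T in array set 1 alone, so no set holds both groups.

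The other genes in this comparison differed by -0.31 (Fgfr3) to 0.33 (S100b), and 6 of the 10 were lower. Gja1 came next in p, with 12.11, 12.06, 12.23 and 12.11 on activated T 1 to 4 against 11.78, 11.97 and 11.91 on conventional T 1 to 3. These groups did not overlap, and the difference of 0.24 (SE 0.082) had an adjusted p of 0.0691 by limma. The median difference of the 10 genes was -0.015 beside 0.0064 over all genes.

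Activated natural Treg against natural Treg gave the most calls over all genes, 2027 or 16.7%, and 0 among the 10. S100b had the smallest adjusted p, 0.183 by limma, with a difference of 0.35. Its values were 12.80, 12.88 and 12.49 on activated natural Treg against 12.35, 12.56, 12.19 and 12.41 on natural Treg, so the groups overlapped. All activated natural Treg arrays were in array set 3 and all natural Treg arrays in array set 1. With the array sets as a block the S100b difference was -0.077. Ntsr2, higher in the other activation comparison, differed by -0.071 here, with 12.03, 12.08 and 12.12 against 12.09, 12.11, 12.08 and 12.31. The difference between the 2 activation effects, tested after the values had been seen, was 0.45 (SE 0.16) for Ntsr2 at an adjusted p of 0.487 by limma. Activated natural Treg also received TGF-beta and activated T did not, so that difference mixes the cell label with TGF-beta.

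Foxp3 mutant labels against their wild-type counterparts gave 0 calls among the 10. Natural Treg against natural Foxp3-delta (0.0493% of all genes called) had its largest difference in S100b, at -0.44 (SE 0.20) with an adjusted p of 0.291 by limma. S100b was at 12.72 and 12.90 on natural Foxp3-delta, above all 4 natural Treg arrays, and these groups share no array set. Induced Treg against induced Foxp3-delta had 0 calls over all genes by limma (342 at an unadjusted p under 0.05), and the 10 genes differed by -0.21 (Slc4a4) to 0.16.

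The comparisons around induction gave no calls among the 10 either. Induced Treg differ from activated T by TGF-beta and by the split of the induced cultures on EGFP, which cannot be told apart here. Induced Treg against activated T had 0.0493% of all genes called. Ntsr2 (-0.29, SE 0.098) and Fgfr3 (0.37, SE 0.14) had unadjusted p-values under 0.05 and adjusted p-values of 0.341 and 0.399 by limma. Induced Treg against failed induced Treg had 0 calls over all genes by limma (512 at an unadjusted p under 0.05). Ntsr2 was at 12.71, 12.25 and 12.39 on failed induced Treg and at 12.43, 12.08, 12.11, 12.10 and 12.10 on induced Treg, which overlap, and differed by -0.29 (SE 0.11). Natural Treg against conventional T, both within array set 1, had 0.00822% of all genes called, and the 10 genes lay between -0.15 (Slc4a4) and 0.25 (Sox9).

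In the comparisons of a week in IL-2, Slc4a4 had the smallest p in the mutant labels. It was at 10.97 and 10.86 on IL-2 induced Foxp3-delta against 11.10, 11.53 and 11.47 on induced Foxp3-delta. The IL-2 arrays were both below the other 3, and the difference was -0.45 (SE 0.13) at an adjusted p of 0.0877 by limma, in a comparison where 0.304% of all genes were called. In the wild-type labels (2.15% of all genes called) Slc4a4 was at 11.06 on both IL-2 induced Treg arrays, within the range of induced Treg (10.96 to 11.45). Gfap had the smallest p there, with an adjusted p of 0.562 by limma. The difference between the 2 IL-2 effects, tested after the values had been seen, was 0.35 (SE 0.17) for Slc4a4 at an adjusted p of 0.9999 by limma. IL-2 induced Foxp3-delta and induced Foxp3-delta share no array set.

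**Figure D3:**
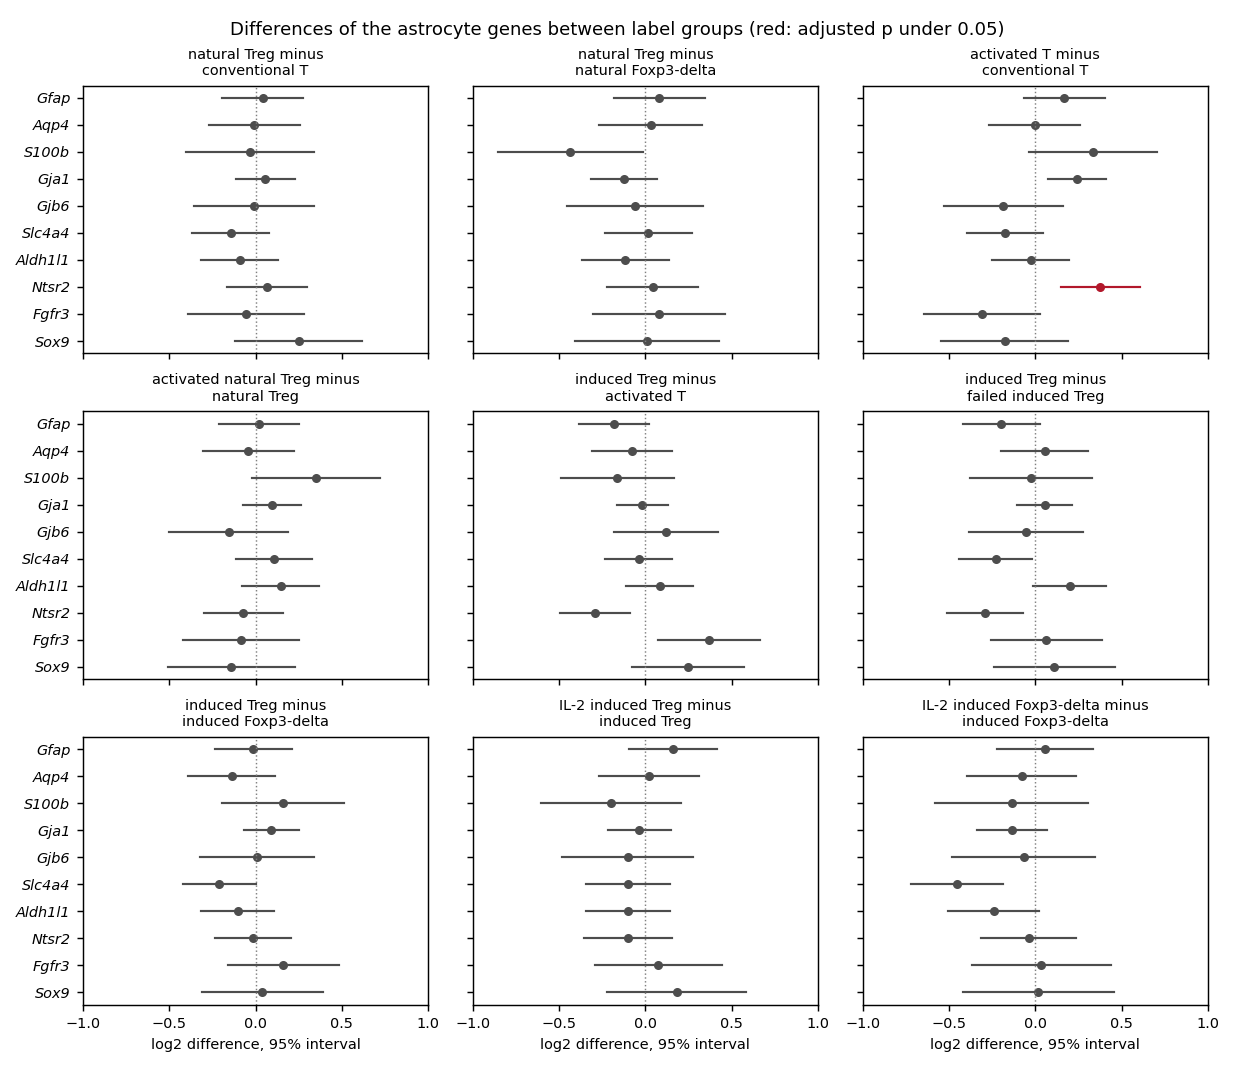
Log2 difference and 95% interval of the 10 genes in 9 comparisons of label groups (first minus second, limma over 31 arrays), with calls at an adjusted p under 0.05 in red. The single red interval is Ntsr2 in activated T minus conventional T (0.38), and every interval stays between -0.86 and 0.72.

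The 48 further astrocyte genes were tested in the same fits. Across the 10 label groups 3 of the 48 passed the F test of limma, Gstm1, Prodh and Mfge8, beside 13.6% of all genes. In activated natural Treg against natural Treg (16.7% of all genes called) 4 of the 48 were called, where the glutamine synthetase gene Glul fell by 0.51 (SE 0.13, adjusted p 0.0120 by limma), the transcription factor gene Nfia fell by 0.55, Gstm1 fell by 0.29 and Ndrg2 rose by 0.38. With the array sets as a block their adjusted p-values by limma were between 0.484 and 0.940. With the arrays scaled to a common median Glul and Gstm1 were at 0.31 and 0.22, where the 2871 brightest genes had a median of 0.38. In activated T against conventional T (6.75% of all genes called) 1 of 48 was called, Cst3 at -0.21. It was at 0.49 with median scaling, where the brightest genes had a median of 0.52, and had an adjusted p of 0.897 by limma with the array set block. In IL-2 induced Treg against induced Treg (2.15% of all genes called) 1 of 48 was called, Mfge8 at -0.42 (adjusted p 0.0544 by limma with the array set block), and the other 6 comparisons had 0 calls of 48. The median difference of the 48 genes lay between -0.057 and 0.0052 in the 9 comparisons, beside medians of all genes between -0.0033 and 0.0064.

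The proteins that hold Aqp4 at the endfoot membrane were looked at through 9 genes of that complex and its neighbours. Dag1, the dystroglycan gene, was called at 0.36 (adjusted p 0.00916) in activated T against conventional T and at 0.23 (adjusted p 0.0410) in activated natural Treg against natural Treg, both by limma. It was not called by limma when all its probe sets were averaged (0.13 and 0.17, adjusted p 0.353 and 0.163) or with the array sets as a block (adjusted p 0.460 and 0.827). The second difference was -0.25 with the values as deposited, where all genes had a median of -0.53 and the brightest genes of -0.31. Kcnj10, the potassium channel of the endfeet, Mlc1 and Hepacam were above the controls on every array and not called in any of the 9 comparisons, and neither was Aqp4.

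The genes were also compared with each other over the arrays, since genes of one cell type can rise and fall together where the amount of that cell type varies between samples. After normalisation 0 of the 45 gene pairs had a correlation at an adjusted p under 0.05 in a permutation test over 31 arrays, and 2 pairs had an unadjusted p under 0.05. The median Pearson r was -0.081, 18 of the 45 pairs were above 0, and 0 pairs reached 0.5, beside 3.64% of all pairs of tested genes. Gfap and S100b were the most alike (r = 0.39, rho = 0.35), with permutation p-values of 0.0301 and 0.0559, adjusted to 0.661 and 0.978 over the 45 pairs. Without the 2 arrays farthest from the median of Gfap r was 0.39, and within the 3 array sets it was 0.18, 0.58 and 0.38 (15, 6 and 10 arrays). The lowest pair was Gfap and Aldh1l1, at r = -0.36.

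Scaling decided this result. With the values as deposited the median r of the 45 pairs was 0.67 and 40 pairs passed the test, and with arrays scaled to a common median the figures were 0.54 and 36. As deposited, Gfap, Aqp4, Gja1, Ntsr2 and S100b followed the 99th percentile of all probe sets on the array, with correlations of 0.94, 0.92, 0.95, 0.91 and 0.89 over the 31 arrays. The correlation with that percentile was 0.85 for Slc4a4, 0.68 for Gjb6, 0.63 for Aldh1l1, 0.58 for Fgfr3 and 0.27 for Sox9, and Sox9 had 0.84 with the array median. Gfap and S100b had r = 0.91 as deposited.

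**Figure D4:**
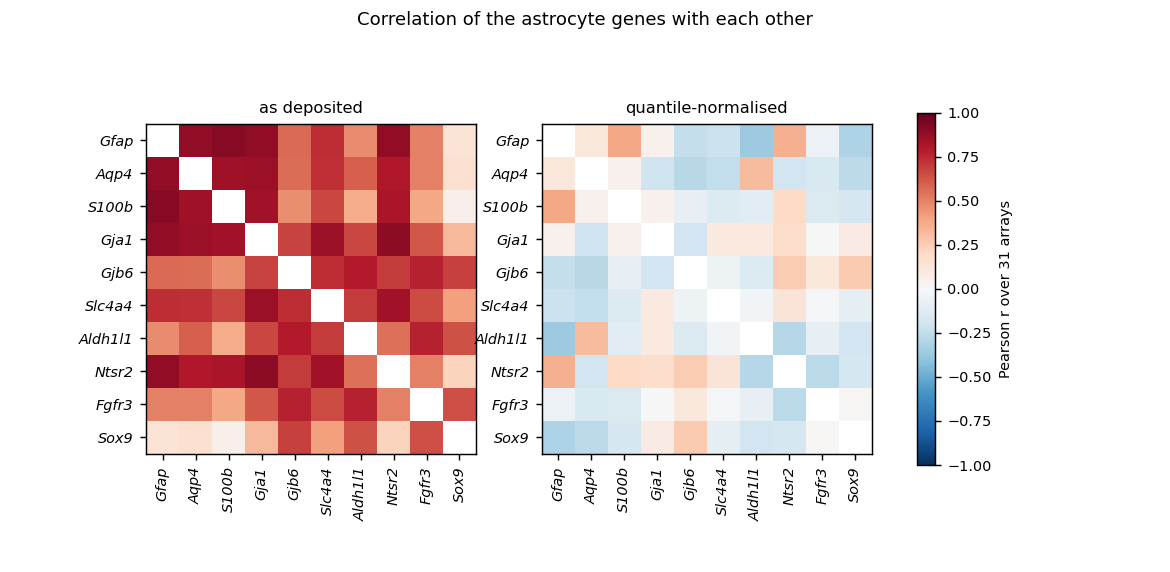
Pearson r between the 10 genes over 31 arrays (colour scale from -1 to 1), as deposited on the left and quantile-normalised on the right, with the diagonal left white. The deposited values correlate with a median of 0.67 and the normalised ones with a median of -0.081.

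Probe sets of the same gene gave a reference for these correlations. For the 7 genes with several probe sets above the filter there were 30 pairs of probe sets, and after normalisation their median r was 0.015, from -0.42 to 0.64, with 17 pairs above 0. As deposited the median was 0.70. A single pair, 1 of the 30, reached 0.5 after normalisation, a pair of Gja1 probe sets at r = 0.64. The 3 Gfap probe sets were at r = -0.42 to -0.019 with each other, and the 2 S100b probe sets at 0.079. Over all genes, 15301 such pairs had a median r of 0.0041 after normalisation and 0.76 as deposited, and 4.78% reached 0.5. Within array set 1 the median r of the 30 pairs was -0.053 and 5 of them, all of Gja1, reached 0.5 (5.87% of all such pairs did). Within array sets 2 and 3 the medians were 0.088 and -0.013, and 5 and 3 pairs reached 0.5 (17.1% and 9.59% of all pairs). In each of these sets 5 of the 30 pairs were at -0.5 or below, beside 2468 and 1357 of the 15301 pairs over all genes. The sign was not stable between sets: 3 Gja1 pairs at 0.60, 0.66 and 0.65 in array set 1 were at -0.73, -0.53 and -0.54 in array set 3.

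**Figure D5:**
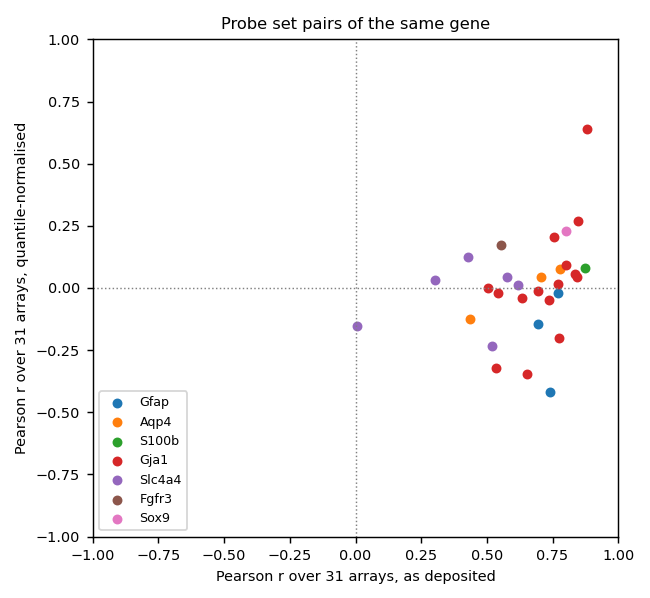
Each point is a pair of probe sets of the same gene, with Pearson r over 31 arrays as deposited on the horizontal axis and quantile-normalised on the vertical axis. The 30 points have a median of 0.70 on the horizontal and 0.015 on the vertical axis, and a single Gja1 pair reaches 0.64 on the vertical axis.

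Differences between label groups also depended on the probe set. When all 24109 probe sets above the filter were tested, 15.5% were called in activated natural Treg against natural Treg, and 2 of the 25 for these genes were. A second Gfap probe set was at 11.90, 11.99 and 11.92 on activated natural Treg against 12.56, 12.43, 12.29 and 12.18 on natural Treg, and fell by 0.43 (SE 0.14, adjusted p 0.0451 by limma). The groups did not overlap there, while the probe set that represents Gfap differed by 0.021 and the remaining one by 0.16. A dim Gja1 probe set (22.1 to 71.5 as deposited) rose by 0.65 (adjusted p 0.0110 by limma), with deposited values that overlapped between the groups, while the representing Gja1 probe set differed by 0.096. In this comparison 6 of the 7 genes with several probe sets had differences of both signs.

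The gene with the pattern most like that of each of the 10 was in every case outside the 10. By Pearson r over the 31 arrays, S100b was closest to Nisch (0.83), Krtap10-4 (0.81) and Zfp952 (0.80), but within array set 1 those correlations were 0.46, 0.017 and 0.094. They were 0.96, 0.72 and 0.74 within array set 2 and 0.54, 0.83 and 0.88 within array set 3. Gfap was closest to Hoxd8 (0.62), Aqp4 to Pcdh19 (0.62), Gja1 to Klrg2 (0.64), Gjb6 to Irf2bp1 (0.61) and Aldh1l1 to Prpf38a (0.62). Sox9 was closest to Syvn1 (0.66), Slc4a4 to Lars (0.62), Ntsr2 to Krtap3-1 (0.65) and Fgfr3 to Ptprb (0.68). These are the highest values each among the 12169 genes tested once unnamed gene models were left out, and are given as a description. The nearest of the 10 genes to Gfap, S100b, ranked 170th among all genes tested, and the nearest to Fgfr3 ranked 4039th.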

How the data were processed

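RNA of 31 samples was measured on 1-colour Affymetrix arrays. The authors deposited linear probe set intensity values. Their probe summary, background correction and scaling are not stated in the labels, and the centring is therefore unknown. Array medians ran from 22.2 to 55.4. The number of arrays limits the precision. Correlations between arrays were 0.98 to 0.998, and each array was counted as 1 sample.

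Of the probe sets 34945 carried 1 symbol in the platform annotation, 932 several and 9211 none, and 64 were controls. No gene was named from a probe set of several symbols. Intensities were quantile normalised, log2(intensity + 16) was taken, and 12169 of 18193 genes were tested. The linear model (limma 3.58.1, R 4.3.3) had 1 mean per label group, used all arrays, and its p-values were adjusted by Benjamini-Hochberg over all genes tested. Pairs of genes were tested with 100000 two-sided permutations of the arrays. Both were tested on simulated data. The labels give no batch. Ward clustering on the cre to bioB ratio, the array median and the 99th percentile gave 3 array sets.

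The text names the 10 genes with all probe sets and up to 4 called genes per list and comparison (otherwise at most the smallest p). It also names the genes most correlated with each of the 10, with unnamed gene models left out. The genes and lists were chosen with earlier results of these data known. Alternatives were other scalings, pseudocounts of 1 and 64, no filter, other probe set rules, array set and replicate blocks, fits within array sets or of the compared groups only, and leaving out each array.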

Additional observations from a re-analysis of the deposited data

Results flagged for a closer look

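In the 3 label groups of 4 or 5 arrays, the array farthest from the others was examined for each of the 10 genes, 30 sets of values in all. In 5 of them 1 array stood far from the rest, where the nominal rate of the test is about 1 in 20 (1.5 of 30). The share over all genes was not computed, so whether these genes stand out in this is not known. Ntsr2 was at 12.43 on induced Treg 1 beside 12.08 to 12.11 on the other 4 arrays, and at 12.31 on natural Treg 4 beside 12.08 to 12.11 on the other 3. S100b was at 12.26 on activated T 3 beside 12.87 to 12.98. Gja1 was at 11.86 on induced Treg 5 beside 12.13 to 12.22, and Slc4a4 was at 11.38 on natural Treg 3 beside 11.16 to 11.20. The 5 values fell on 5 different arrays.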

How the results depend on the processing

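The differences and several of the counts depend on how arrays are scaled. With arrays scaled to a common median, 6 genes passed the F test, 7 were called higher in activated T against conventional T, 7 higher in activated natural Treg against natural Treg and 3 lower in natural Treg against natural Foxp3-delta. Of all 12169 genes tested, 3726, 2243 and 1425 were called in the same directions. The count of all genes passing the F test under other scalings is not given here. The median of all genes shifted by 0.17, 0.089 and -0.13 in those 3 comparisons, and of the 2871 brightest genes (mean percentile of 90 or more) by 0.52, 0.38 and -0.46, so relative to the latter the 10 genes' medians were 0.11, 0.29 and -0.17. As deposited, 6 genes passed the F test, 0 were called in activated T against conventional T (all genes shifted by -0.36, and Ntsr2 was 0.60 above the brightest genes), 1 was lower in activated natural Treg against natural Treg (all genes -0.53) and 4 were higher in induced Treg against activated T (all genes 0.46). Of all 12169 genes, 2 were called higher and 1287 lower in the first of these comparisons, 6900 lower in the second and 7205 higher in the third. Gene pairs passing the permutation test numbered 40 as deposited and 36 with median scaling, with no count over pairs of all genes beside them. With the replicate block 1 gene passed the F test and 2 passed in activated T against conventional T. The shares over all genes with that block are not given here. Deviations of same-numbered arrays had a median r of 0.0025 over 114 pairs from all groups (-0.29 to 0.40), beside -0.0015 over 314 other pairs. Whether the numbers pair the samples of particular groups was not tested. Without the filter, with the array set block and with only the compared groups, 0 genes were called in activated T against conventional T, where the Ntsr2 difference was 0.38, 0.53 and 0.38.

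Leaving out 1 array at a time gave 0 to 2 genes in the F test (2 without induced Treg 1) and 0 to 2 in activated T against conventional T (Ntsr2 0.29 to 0.49, 2 genes without induced Treg 5). The shares over all genes in these fits are not given here, and were 13.6% and 6.75% with all arrays. The other 8 comparisons and the gene pairs gave 0 each time. Some uncalled differences reversed. S100b in activated natural Treg against natural Treg was -0.077 with the array set block, Ntsr2 in induced Treg against activated T was 0.026 as deposited, and Gfap in IL-2 induced Treg against induced Treg was -0.55 as deposited, -0.37 with median scaling and -0.029 to 0.35 when 1 array was left out, the lowest without IL-2 induced Treg 2. As deposited, all genes had a median of 0.46 in induced Treg against activated T, and Ntsr2 was at -0.38 relative to the 2871 brightest genes. In IL-2 induced Treg against induced Treg the median of those brightest genes was -0.58 as deposited and -0.39 with median scaling. The cause of these changes was not tested. Fits within array sets were possible for 5 of the comparisons, none of which had a call among the 10 in the main fit. Natural Treg against conventional T, induced Treg against failed induced Treg and IL-2 induced Treg against induced Treg had 0 calls within array set 1. Induced Treg against induced Foxp3-delta had 0 within array set 2. The shares over all genes are not given here. The remaining fits, with 1 array in a group, had differences of -0.62 to 0.35. Activated T against conventional T could not be fitted within a set.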
